A study of Triticum aestivum with 32 samples.

Results

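Low confidence gene models are predicted genes that an annotation keeps apart from its main set, because the predicted protein is incomplete or has little match to known plant proteins. Such lists can hold fragments of genes, pseudogenes and transposon sequence beside true genes. In the wheat annotation used by the authors, their identifiers end in LC. The TPM of 161536 such models were read in flag leaf RNA, and the 100 with the highest median over 32 libraries are described here. TPM, a unit of transcript abundance, divide the reads of a transcript by its length and scale each library to 1000000. All values below are sums over the transcripts of a gene model.

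The plants were Stettler, a spring type of bread wheat, which is hexaploid and carries the subgenomes A, B and D. The flag leaf is the last leaf below the spike and feeds the growing grain. The 8 groups held 4 libraries each, which the series text describes as independent biological replicates. Under drought the soil was held at 40% of field capacity, under heat the day reached 30 °C for some hours, and under salt the water carried 20 mM, then 40 mM and lastly 80 mM NaCl. The stresses were also combined, as heat plus drought, as salt with either drought or heat, and as a triple stress of all of them. Control pots stood at 100% of field capacity, on tap water, at 24 °C by day and 18 °C by night, and the groups without a given stress shared these settings for it. The stresses began at Feekes stage 8, in 8 pots per treatment. The 4 groups with heat stood in one greenhouse and the 4 without it in another, so heat and greenhouse cannot be told apart. The identifiers carry no gene names and 0 of them matched the 155467 genes of the reference table, so no function is given for any of these models and the leaf label was not checked against marker genes.

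The depth of the libraries is unknown, since TPM keep no record of it. Libraries differed in scale, in part between groups and in part within them. A median-of-ratios scaling factor over gene models lay at 0.698 in control replicate 3, 0.668 in heat replicate 1, 0.797 in salt replicate 3 and 0.755 to 0.962 in the 4 drought libraries. It lay between 0.834 and 1.27 in the other 25 libraries. Control replicate 3 and heat replicates 1 and 3 were left out together as one check, chosen after the data were seen. Salt replicate 3, the column S5 of the deposited table, stood apart by very high values of 187 gene models, 7 of them among the 100.

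The 100 models had median levels of 3575 TPM at the first place and 89.5 TPM at the last. Of these, 6 lay above 1000 TPM, 6 between 500 and 1000 TPM, and 66 under 200 TPM. The first was the 11th of all 269428 gene models by median, and 6 of the 100 stood among the 100 highest gene models of any confidence. At the lower edge, TraesCS2D02G195000LC, TraesCS6B02G558500LC and TraesCS4D02G149100LC had medians of 92.3, 91.4 and 89.5 TPM. Just outside it, TraesCS7B02G594700LC, TraesCS5B02G613300LC and TraesCS4A02G444400LC had 88.7, 86.9 and 86.8 TPM. Every one of the 100 passed the filter for the tests, at least 1 TPM in at least 4 libraries, and 93 reached 10 TPM in every library.

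By their identifiers, 25 of the 100 lay on subgenome A, 32 on B and 35 on D, and 8 had no assigned chromosome (U in the identifier). Among the 14529 low confidence models tested, subgenome A held 30.4%, B 37.1%, D 28.9% and the unassigned sequence 3.59%. A single transcript made up 94 of the 100, against 92.4% of the low confidence models tested and 74 of the 100 highest high confidence models. The deposited table gives no coordinates, so position is known only as far as the chromosome and the running number in the identifier. By that number 3 pairs were neighbours, namely TraesCS7A02G312600LC with TraesCS7A02G312700LC, TraesCS7D02G297300LC with TraesCS7D02G297400LC, and TraesCS6B02G606700LC with TraesCS6B02G606800LC.

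The most abundant model was TraesCS1A02G522500LC. It had 6412, 5683, 6257 and 6283 TPM in the drought libraries, 1496, 4144, 343 and 4689 TPM in the salt plus heat libraries and 3555, 4948, 6892 and 3595 TPM in the control libraries. Drought was narrow and high, while salt plus heat ran from the lowest library of all 32 to one near the control mean. TraesCSU02G606800LC, of unassigned position, followed the same course over 31 libraries (Pearson r = 0.994, without S5), at 2520.5, 2214, 2718 and 2459 TPM in drought against 1560.4, 2028, 2586 and 1577 TPM in control. A high confidence model, TraesCS5A02G454200, was next in likeness to TraesCS1A02G522500LC (r = 0.979). TraesCS1B02G548200LC, much lower, ran with both (r = 0.922 and 0.903).

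**Figure D1:**
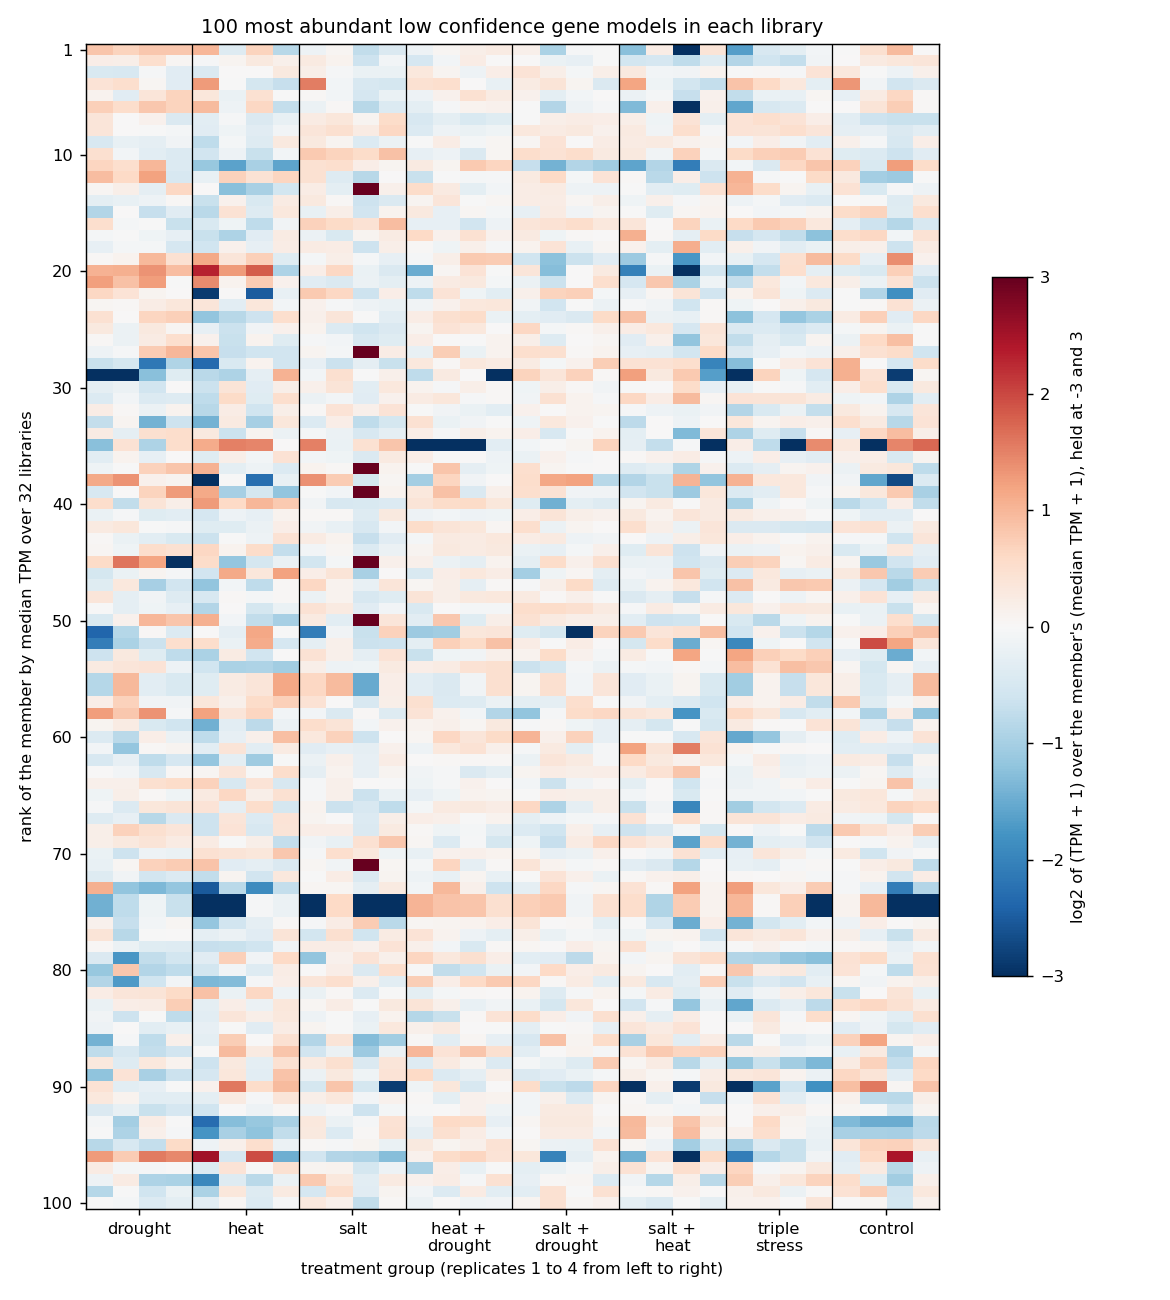
Level of each of the 100 models (rows, ordered by median TPM) in each of the 32 libraries (columns, by group, with control at the right), as log2 of TPM + 1 over the median of that model, with the colour scale held at -3 and 3. The dark red cells of salt replicate 3 are 7 models that were at least 4 times higher there than in any other library, and the darkest blue cells include the libraries in which 5 models were listed at 0.

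TraesCS1A02G576300LC, the second, averaged 1946 ± 201 TPM in salt plus heat, 1945 ± 479 TPM in triple stress and 3391 ± 353 TPM in control (SD, n = 4 each). TraesCS2D02G075400LC, the third, stayed between 1840 and 3422 TPM in all 32 libraries. TraesCS6B02G300200LC ran from 943 to 2486 TPM. The models most like TraesCS1A02G576300LC were 2 high confidence ones on the same chromosome group, TraesCS1B02G432700 (r = 0.946) and TraesCS1D02G411300 (r = 0.921). For TraesCS6B02G300200LC it was TraesCS6A02G159800 (r = 0.910). These r are descriptions over 31 libraries that share groups and scaling.

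TraesCSU02G656000LC, the fourth, differed little between groups but widely within them. Its group means ran from 2226 ± 504.2 TPM in salt plus drought to 2779 ± 877 TPM in triple stress (SD, n = 4 each). Salt averaged 2727 ± 2204 TPM over 4 libraries and 3141 ± 2502 TPM over the 3 without S5. Replicate 1 had 5041 TPM in heat, 6015 TPM in salt, 4726 TPM in salt plus heat and 5218 TPM in control. The other 3 libraries of those 4 groups had 1270 to 2054 TPM. In the groups with drought no library stood off in that way, and the highest of them, triple stress replicate 1, had 3746 TPM. Replicate 4 was the lowest of its group in 7 of 8 groups. Among all gene models tested, 0.867% had one replicate number lowest in at least 7 groups, and TraesCSU02G656000LC was the 1 such model of the 100.

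Together the 100 models held 3.85 ± 0.183% of all TPM in drought, 3.52 ± 0.390% in heat, 5.66 ± 4.13% in salt, 3.49 ± 0.141% in heat plus drought, 3.42 ± 0.171% in salt plus drought, 3.12 ± 0.301% in salt plus heat, 3.23 ± 0.174% in triple stress and 3.69 ± 0.173% in control (SD, n = 4 each). The high mean and spread of salt came from replicate 3, at 11.8%. Without it salt averaged 3.60 ± 0.396% (SD, n = 3). The other 31 libraries ran from 2.68% in salt plus heat replicate 3 to 4.10% in a drought library. The 10 most abundant models alone held 2.09 ± 0.122% in drought, 1.51 ± 0.300% in salt plus heat and 1.93 ± 0.169% in control. No test between groups was made of these shares, since the models were chosen by their level.

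In salt replicate 3, 7 of the 100 models were at least 4 times higher than in any other library. TraesCS2D02G302000LC had 32412 TPM there and 166 to 538 TPM in the other 31 libraries. TraesCS2A02G654100LC had 19927 TPM against 79.5 to 444 TPM, and TraesCSU02G619600LC 15423 TPM against 201 to 962 TPM. The remaining 4 were TraesCS3D02G606600LC with 7904 TPM, TraesCS5D02G547600LC with 7814 TPM, TraesCS4B02G087600LC with 5850 TPM and TraesCSU02G589600LC with 4369 TPM. In each case the library was 8.99 to 60.3 times the next highest. The 7 made up 9.37% of the TPM of salt replicate 3, against 0.0906% to 0.251% of every other library, and 6 of its 10 highest gene models were among them, including the first.

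**Figure D2:**
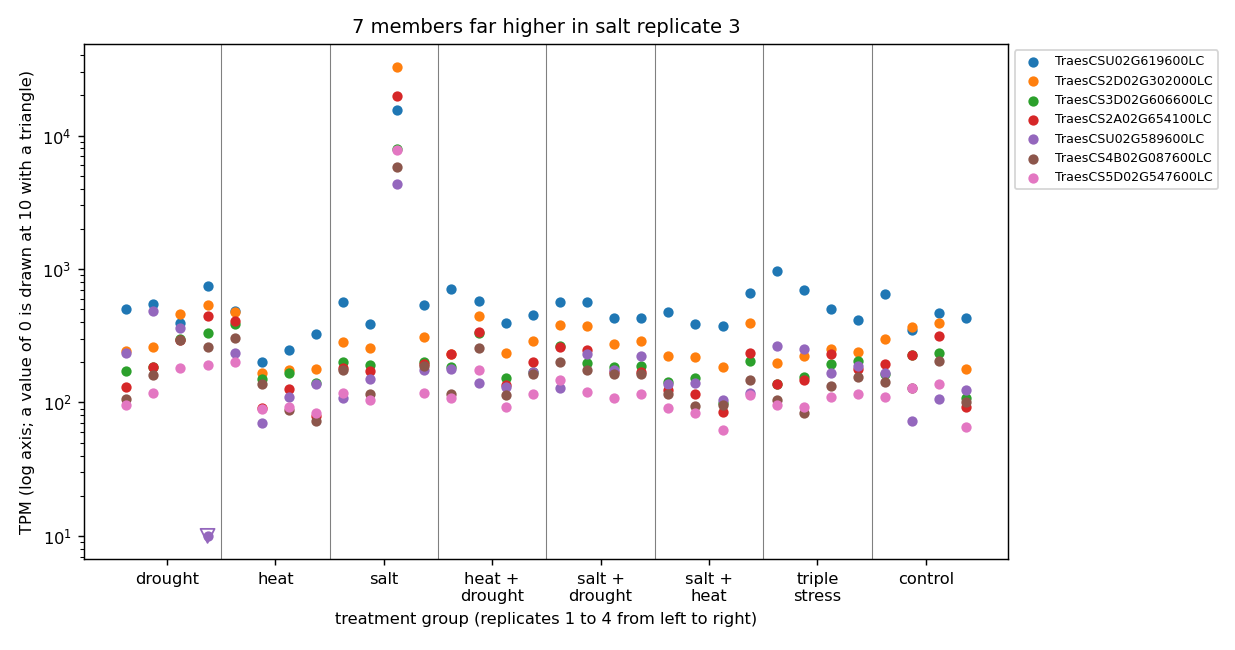
TPM of the 7 models that were far higher in salt replicate 3, on a log axis, with one colour per model, libraries in group order and a listed 0 drawn as a triangle at 10 TPM. The points of salt replicate 3 lie between 4369 and 32412 TPM, and the points of the other 31 libraries lie at or under 962 TPM apart from a 0 in drought replicate 4 for TraesCSU02G589600LC.

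The same library was high for models outside the 100. Of 60684 gene models tested, 187 were at least 4 times higher in S5 than in any other library, and 127 of these were of low confidence. That is 0.874% of the low confidence models tested and 0.13% of the high confidence ones. Together the 187 held 22.4% of the TPM of S5 and 0.225% to 0.645% of the other libraries. In no other library did more than 35 models stand out so far. TPM sum to a fixed total in each library. The remaining 93 of the 100 lay there at a median 0.758 of the mean of the other salt libraries. All tested models other than the 187 lay at a median 0.716, so the shift was not particular to the 93. Of the 93, 58 lay below each other salt library. With the 187 taken out and the libraries rescaled, the median of the 93 was 0.973. The count of 58 and the rescaled median were not taken over all models. What the RNA of this library held was not tested.

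Outside S5, 5 of the 7 ran together and the other two did not. Over 31 libraries TraesCS2D02G302000LC, TraesCS2A02G654100LC, TraesCS3D02G606600LC and TraesCS5D02G547600LC had r of 0.889 to 0.978 in their 6 pairs, the closest being TraesCS3D02G606600LC with TraesCS5D02G547600LC. With them TraesCS4B02G087600LC had r of 0.841 to 0.892. TraesCSU02G619600LC had r of 0.224 to 0.466 with these 5, and TraesCSU02G589600LC -0.272 to -0.178. Heat replicate 1 was the highest heat library for all 7. It had 477 TPM of TraesCS2D02G302000LC, 405 TPM of TraesCS2A02G654100LC, 386 TPM of TraesCS3D02G606600LC and 202 TPM of TraesCS5D02G547600LC, against 79.5 to 178 TPM in the other heat libraries. For TraesCSU02G619600LC it had 482 TPM against 201 to 325 TPM, for TraesCSU02G589600LC 233 TPM against 70.5 to 138 TPM, and for TraesCS4B02G087600LC 304 TPM against 72.7 to 138 TPM. None of the 7 passed the test in any comparison. For TraesCS2D02G302000LC the salt mean against control gave a log2 fold change of 1.64 (SE 0.85, limma adjusted p = 0.418) with S5 and -0.07 (SE 0.34, adjusted p = 0.940) without it.

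Several of the 100 had values that could not be told apart from those of another model. TraesCS4B02G432800LC and TraesCS4D02G359600LC had equal TPM in all 32 libraries, and so did TraesCS3A02G342800LC and TraesCS3B02G402200LC, which left 98 different profiles. TraesCS2D02G075400LC equalled the high confidence model TraesCSU02G270000 and TraesCS5D02G267700LC equalled TraesCS7D02G256300. Of the low confidence models tested, 1.27% had such an equal. The authors' tool, RSEM, divides a read that fits several transcripts between them, so the level of one near-identical copy is an estimate and the values of such copies are uncertain. Whether the models with equal values are near-identical in sequence was not tested.

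TraesCS3D02G317000LC, on the D member of the same chromosome group as TraesCS3A02G342800LC and TraesCS3B02G402200LC, showed a further pattern. In the 18 libraries in which it and TraesCS3A02G342800LC were both above 0, its TPM was a whole multiple of the other's. It was equal to it in 9 libraries, 2 times it in 6, 4 times it in 2 and 5 times it in 1. The multiples were whole to within 0.0126%. In drought, for example, TraesCS3D02G317000LC had 79.2, 258, 99.7 and 277 TPM and TraesCS3A02G342800LC had 39.6, 64.4, 99.7 and 69.3 TPM. In the other 14 libraries one of them was listed at 0, TraesCS3D02G317000LC in 6 and TraesCS3A02G342800LC in 8. The sum of the 3 models was never 0 and ran from 158 to 748 TPM. No other model of the 100 had whole multiples of another in this way beyond the equal pairs above. The number of reads behind these values is not given, and a listed 0 is not read as absence.

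TraesCSU02G650400LC, of unassigned position, was listed at 0 in drought replicates 1 and 2, heat plus drought replicate 4 and triple stress replicate 1, and had 33.3 to 580 TPM in the other libraries. TraesCSU02G589600LC was listed at 0 in drought replicate 4. In all, 5 of the 100 were at 0 in at least 1 library and 95 were at or above 1 TPM in all of them.

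The 100 models varied between groups about as much as gene models at large. Over 31 libraries without S5, the coefficient of variation of the 8 group means had a median of 20.4% in the 100, 29.8% in the low confidence models tested, 17.8% in the 100 highest high confidence models and 21.1% in all models tested. The median coefficient within groups was 23.7% in the 100, and 41.8%, 17.8% and 23.5% in those lists. The highest group mean was at least 2 times the lowest for 41 of the 100 and under 1.5 times for 21. These counts were not taken over all models. TraesCS5B02G701700LC was the most even, with group means within 1.16 times of each other and libraries from 135 to 251 TPM. TraesCS1B02G766900LC ran from 56.4 to 135 TPM.

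Each stress group was compared with control by limma on log2(TPM + 1), with adjusted p-values over all 60684 models, and a model was called at an adjusted p below 0.05. Fold changes on this scale understate the change of low models. In drought 1 of the 100 rose and 1 fell, where of all models tested 1.33% were called, 0.259% as rises and 1.07% as falls. In heat 1 rose and 2 fell, where 1.21% of all were called, 0.559% rising and 0.654% falling. In salt 6 rose and 0 fell, where 1.46% were called, 0.529% rising and 0.928% falling. In heat plus drought 4 rose and 0 fell, where 2.58% were called, 1.69% rising and 0.895% falling. In salt plus drought 7 rose and 1 fell, where 1.79% were called, 0.982% rising and 0.804% falling. In salt plus heat 12 rose and 7 fell, where 9.51% were called, 7.01% rising and 2.5% falling. In triple stress 13 rose and 13 fell, where 13.6% were called, 9.68% rising and 3.96% falling. These 7 comparisons share the 4 control libraries. A total of 34 of the 100 were called in at least one of them, against 18.9% of all models tested, and 6 were called in at least 4, against 1.47% of all.

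**Figure D3:**
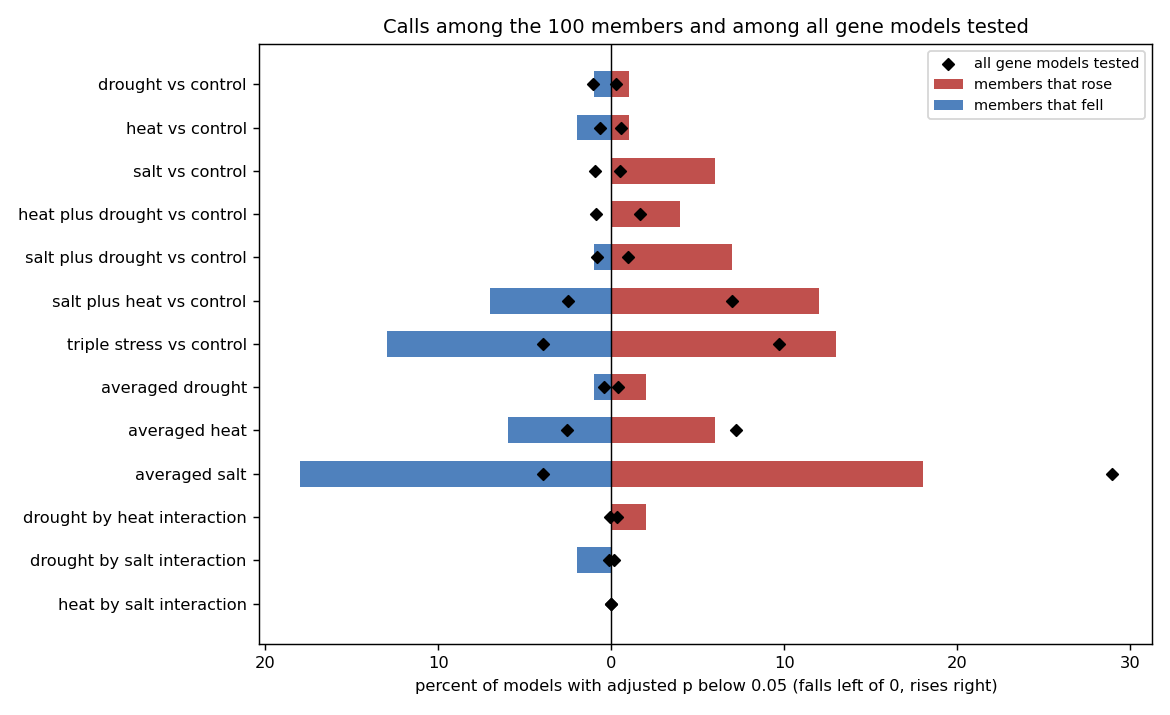
Percent of the 100 models (bars) and of all models tested (diamonds) called at adjusted p below 0.05 in each of the 13 comparisons, with rises to the right of 0 and falls to the left. Triple stress against control gave 13 rises and 13 falls, and the mean of the 4 salt groups against the mean of the 4 groups without salt gave 18 and 18.

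The counts moved with single libraries. The drought count of 2 was 11 without control replicate 3, 4 without drought replicate 2, 5 without drought replicate 4, and 0 without any one of drought replicates 1 and 3 and control replicates 1, 2 and 4. The heat count of 3 was 6 without heat replicate 4 and 5 without control replicate 3. The heat plus drought count of 4 was 2 without heat plus drought replicate 1 or 2 or control replicate 1 or 3, and 1 without heat plus drought replicate 3. The salt plus drought count of 8 was 5 without salt plus drought replicate 1 or control replicate 1 or 3, and 3 without salt plus drought replicate 2. The salt plus heat count of 19 was 10 without salt plus heat replicate 1, 8 without salt plus heat replicate 3 and 11 without control replicate 3. The salt count was 5 without S5, with 5 of the 6 among them. The triple stress count of 26 ran from 18 to 24. The share of all models called was not taken in any of these reduced sets.

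The split of rises and falls depended on how libraries were scaled. As deposited, the median log2 fold change of all models was -0.16 in drought, 0.17 in salt plus heat and 0.17 in triple stress, and that of the 100 was -0.05, -0.04 and -0.04. After median-of-ratios scaling, which brings the median of all models near 0, the 100 had 7 rises and 1 fall in drought, 7 rises and 2 falls in salt, 3 and 1 in heat plus drought, 5 and 3 in salt plus drought, 7 and 10 in salt plus heat and 12 and 18 in triple stress, and 2 of each in heat. After quantile normalisation drought gave 1 rise and 0 falls, heat 2 and 1, and heat plus drought 5 and 1. The share of all models called was not taken under either scaling, so these counts have no background beside them.

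The pair of neighbours on 7A and the pair on 7D rose in all 4 groups with salt. TraesCS7A02G312600LC had 1046, 969, 894 and 1114 TPM in salt libraries, against 470.3, 459, 393 and 481 TPM in control libraries. Each salt library was above each control library, and S5 was not apart from the rest. The log2 fold change was 1.16 (SE 0.18, limma adjusted p = 0.000566). In the other groups with salt it averaged 821 ± 66.5 TPM in salt plus drought, 716 ± 192 TPM in salt plus heat and 935 ± 90.0 TPM in triple stress. The groups without salt other than control had 590.4 ± 179 TPM in drought, 477 ± 94.9 TPM in heat and 532 ± 74.5 TPM in heat plus drought (SD, n = 4 each), and none of these was called.

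Its neighbour TraesCS7A02G312700LC had 665, 608, 556 and 784 TPM in salt, against 340.2, 265, 226 and 296 TPM in control, with a log2 fold change of 1.21 (SE 0.20, limma adjusted p = 0.00143). TraesCS7D02G297400LC averaged 954 ± 130.4 TPM in salt and 523 ± 64.0 TPM in control, and TraesCS7D02G297300LC 917 ± 100.4 TPM in salt and 546 ± 30.6 TPM in control (SD, n = 4 each). Their salt fold changes were 0.86 and 0.74 on the log2 scale. In drought TraesCS7D02G297400LC had 983, 777, 844 and 574 TPM, which overlapped its 872, 699, 1021 and 627 TPM in salt plus heat. TraesCS7D02G297300LC had 868, 687, 671 and 647 TPM in drought and 825, 631, 962 and 659 TPM in salt plus heat. Neither was called in drought. The salt and triple stress calls of the 4 models of 7A and 7D held without any single library. In salt plus drought the calls of TraesCS7A02G312600LC and TraesCS7A02G312700LC held, that of TraesCS7D02G297400LC was lost without salt plus drought replicate 2, and that of TraesCS7D02G297300LC without salt plus drought replicate 1, 2 or 3 or control replicate 3. In salt plus heat, the 4 calls were each lost without salt plus heat replicate 1 or 3, and all but that of TraesCS7D02G297400LC also without control replicate 3. Over 31 libraries 5 of their 6 pairs had r of 0.934 to 0.970. The high confidence model TraesCS7B02G148000, on the B member of that chromosome group, was among the most alike to both 7D models (r = 0.941 and 0.947).

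**Figure D4:**
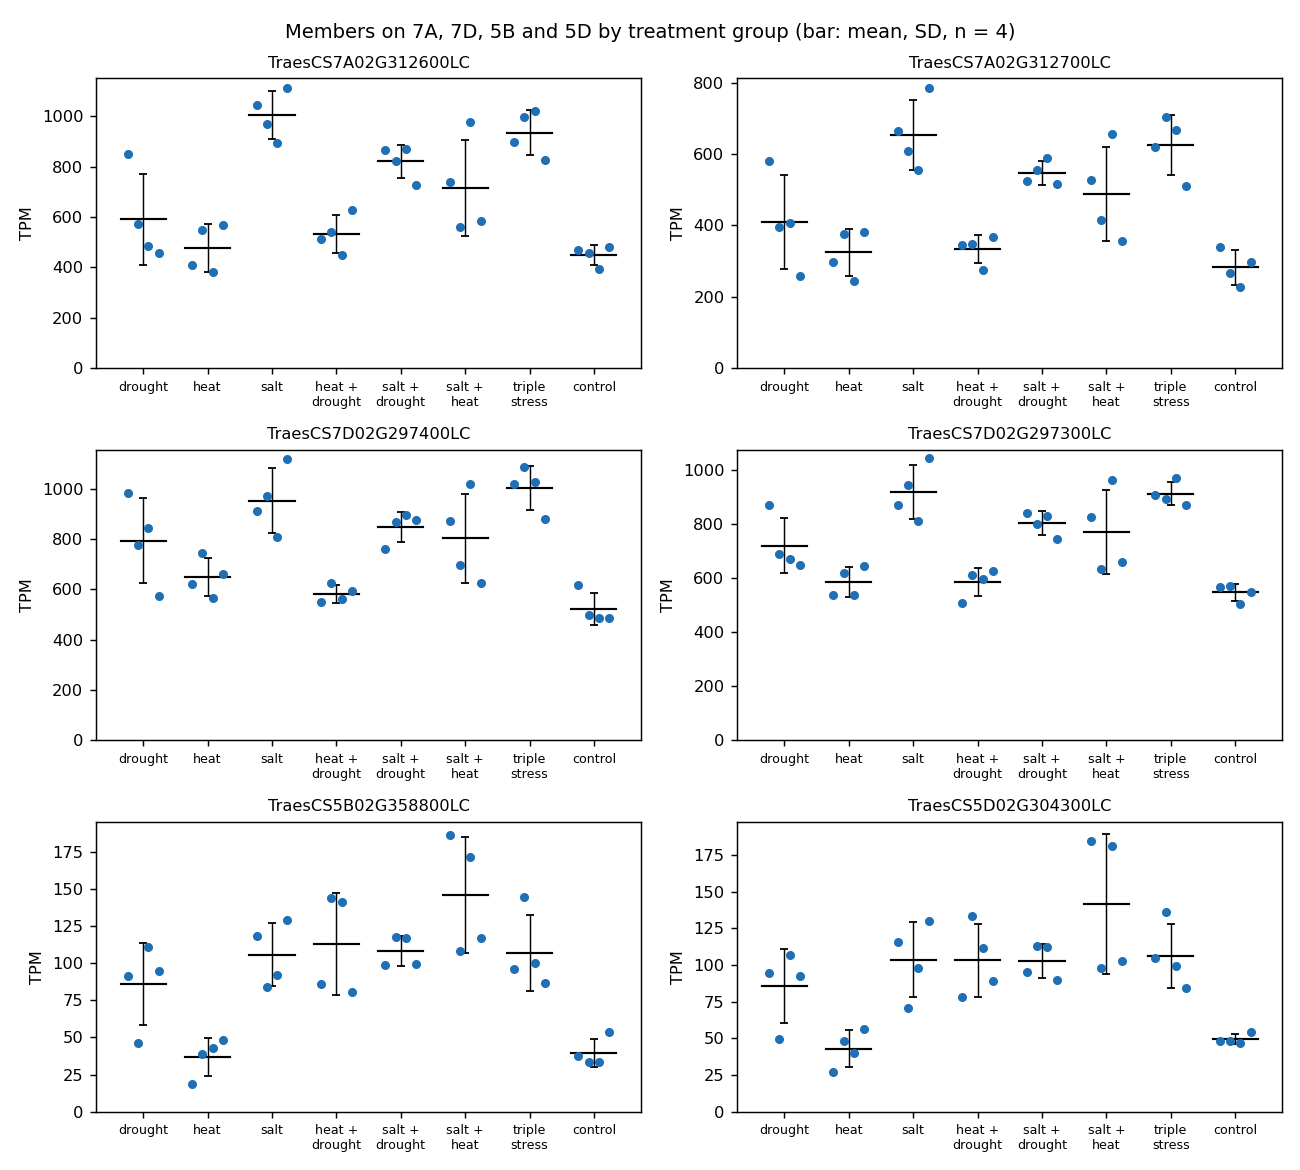
TPM by library in the 8 groups for selected models that rose under salt or combined stress, with points for libraries and bars for mean and SD (n = 4). The 4 models of 7A and 7D were higher in the 4 groups with salt than in control, though their drought libraries overlapped those of salt plus heat. TraesCS5B02G358800LC and TraesCS5D02G304300LC were lowest in heat and control.

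TraesCS5B02G358800LC was called in 6 of the 7 comparisons with control. It had 91.2, 46.4, 111 and 94.5 TPM in drought, 18.7, 38.7, 42.7 and 48.2 TPM in heat, 118, 83.8, 92.3 and 129 TPM in salt and 37.4, 33.6, 33.2 and 53.6 TPM in control. Heat overlapped control, while salt did not. The combined groups had 113 ± 34.2 TPM in heat plus drought, 108 ± 10.3 TPM in salt plus drought, 146 ± 39.0 TPM in salt plus heat and 107 ± 25.7 TPM in triple stress (SD, n = 4 each). Control averaged 39.4 ± 9.62 TPM. The largest log2 fold change was that of salt plus heat, 1.85 (SE 0.27, limma adjusted p = 5.15e-05). The drought call (1.06 on the log2 scale, adjusted p = 0.0487) was lost without drought replicate 1, 3 or 4 or control replicate 1, 2 or 4, and the other 5 calls held without any single library.

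TraesCS5D02G304300LC, on the D member of the same chromosome group, ran with it (r = 0.977). It had 184, 97.9, 181 and 102.7 TPM in salt plus heat, against 47.9, 48.1, 47.0 and 54.6 TPM in control, a log2 fold change of 1.44 (SE 0.25, limma adjusted p = 0.000405). Its calls in salt plus heat and triple stress held without any single library. Those in salt, heat plus drought and salt plus drought were each lost without any one of control replicates 1, 2 and 3 and without several of the stressed libraries. For both models the difference that drought made depended on salt. The effect of drought in the groups with salt, less its effect in the groups without salt, was on the log2 scale -1.53 (SE 0.27, limma adjusted p = 0.0113) for TraesCS5B02G358800LC and -1.17 (SE 0.25, limma adjusted p = 0.0342) for TraesCS5D02G304300LC. The first held without any single library. The second was lost, and the count of calls was 1, without any one of drought replicates 1, 3 and 4, heat replicate 3, salt replicates 1, 3 and 4, heat plus drought replicates 2 and 3, salt plus drought replicates 1 and 4, salt plus heat replicate 1, triple stress replicates 3 and 4 and control replicates 1, 2 and 4. They were the 2 of the 100 called for this difference, both falls, where 0.259% of all models were called, 0.13% as rises and 0.129% as falls. Quantile normalisation gave 1 rise and 2 falls. Without control replicate 3 and heat replicates 1 and 3 together there were 6 rises and 3 falls.

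Averaged over the other treatments, salt gave more calls than heat or drought, in the 100 as in all models tested. Of all models, 9.77% were called for heat and 0.801% for drought. The 16 libraries with salt against the 16 without gave 18 rises and 18 falls, where 29% of all models tested rose and 3.95% fell (32.9% called in all). Of the 36 calls, 28 held without any single library, 13 of them rises. Without S5 there were 23 rises and 16 falls. The median log2 fold change was 0.06 in the 100 and 0.17 in all models. After median-of-ratios scaling, with the all-model median at 0.01, the 100 gave 10 rises and 34 falls. The share of all models called was not taken under this scaling or without S5. As deposited, 6 of the 100 highest high confidence models rose and 70 fell. No pair of ranges was free of overlap over 16 libraries a side.

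The largest rises with salt were those of TraesCS3A02G173600LC, TraesCS5B02G358800LC and TraesCS7A02G312700LC. TraesCS3A02G173600LC had 269, 141, 129 and 191 TPM in triple stress, 18.7, 63.2, 29.5 and 68.1 TPM in heat and 109, 93.5, 25.9 and 60.3 TPM in control. With salt it averaged 146 ± 53.4 TPM and without it 85.5 ± 63.3 TPM (SD, n = 16 each), a log2 fold change of 1.01 (SE 0.24, limma adjusted p = 0.00311). The second mean includes drought replicate 1, at 235 TPM against 43.6 to 49.7 TPM in the other drought libraries. TraesCS2B02G285200LC averaged 190 ± 61.0 TPM with salt and 114 ± 34.5 TPM without it (log2 fold change 0.73, SE 0.15, limma adjusted p = 0.0013). Smaller rises included TraesCSU02G262700LC, at 194 ± 23.3 TPM with salt and 153 ± 16.4 TPM without it, and TraesCS7D02G113500LC, at 175 ± 27.1 TPM and 126 ± 21.5 TPM (SD, n = 16 each).

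The largest falls with salt were in models whose libraries spread widely. TraesCS1B02G548200LC had 33.8, 125, 7.35 and 141 TPM in salt plus heat, 545, 66.5, 369 and 33.7 TPM in heat and 74.5, 142, 519 and 80.9 TPM in control. Heat replicates 1 and 3 and control replicate 3 were high, and salt plus heat replicate 3 was the lowest of all libraries. Over 16 libraries a side it averaged 65.5 ± 39.7 TPM with salt and 204 ± 155 TPM without it, a log2 fold change of -1.56 (SE 0.39, limma adjusted p = 0.00463). TraesCS3B02G411300LC fell by a like amount (log2 fold change -1.55, SE 0.41, limma adjusted p = 0.00664). It had 1.31, 32.04, 65.6 and 27.2 TPM in triple stress, against 187, 299.6, 104 and 179 TPM in control. TraesCSU02G664000LC averaged 267 ± 135 TPM with salt and 554 ± 391 TPM without it (log2 fold change -0.99, SE 0.30, limma adjusted p = 0.015), and that call was lost without control replicate 3 and heat replicates 1 and 3 together.

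The 2 abundant models that ran together also fell with salt in the average over the other treatments. TraesCS1A02G522500LC averaged 2828 ± 1185 TPM with salt and 4775 ± 1588 TPM without it (SD, n = 16 each), a log2 fold change of -0.87 (SE 0.26, limma adjusted p = 0.0132). For TraesCSU02G606800LC it was -0.87 (SE 0.25, limma adjusted p = 0.0102). Neither was called in any of the 7 comparisons with control, and salt alone gave limma adjusted p of 0.639 and 0.630. TraesCS1A02G522500LC had 7131 TPM in heat replicate 1 (scaling factor 0.668) and 343 TPM in salt plus heat replicate 3 (1.23). In salt replicate 3 (0.797) it had 2138 TPM. Whether its level follows the scale of the libraries was not tested. TraesCS1A02G576300LC averaged 2318 ± 557 TPM with salt and 3137 ± 477 TPM without it (log2 fold change -0.46, SE 0.09, limma adjusted p = 0.000769). The salt libraries of TraesCS1A02G576300LC had 3432, 3066, 1827 and 2670.1 TPM, overlapping the control libraries, and the single salt comparison was not called. Salt plus heat had 1936, 2006, 1681 and 2162 TPM, against 2879.5, 3441, 3571 and 3670.3 TPM in control, with no overlap (log2 fold change -0.80, SE 0.18, limma adjusted p = 0.0047).

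**Figure D5:**
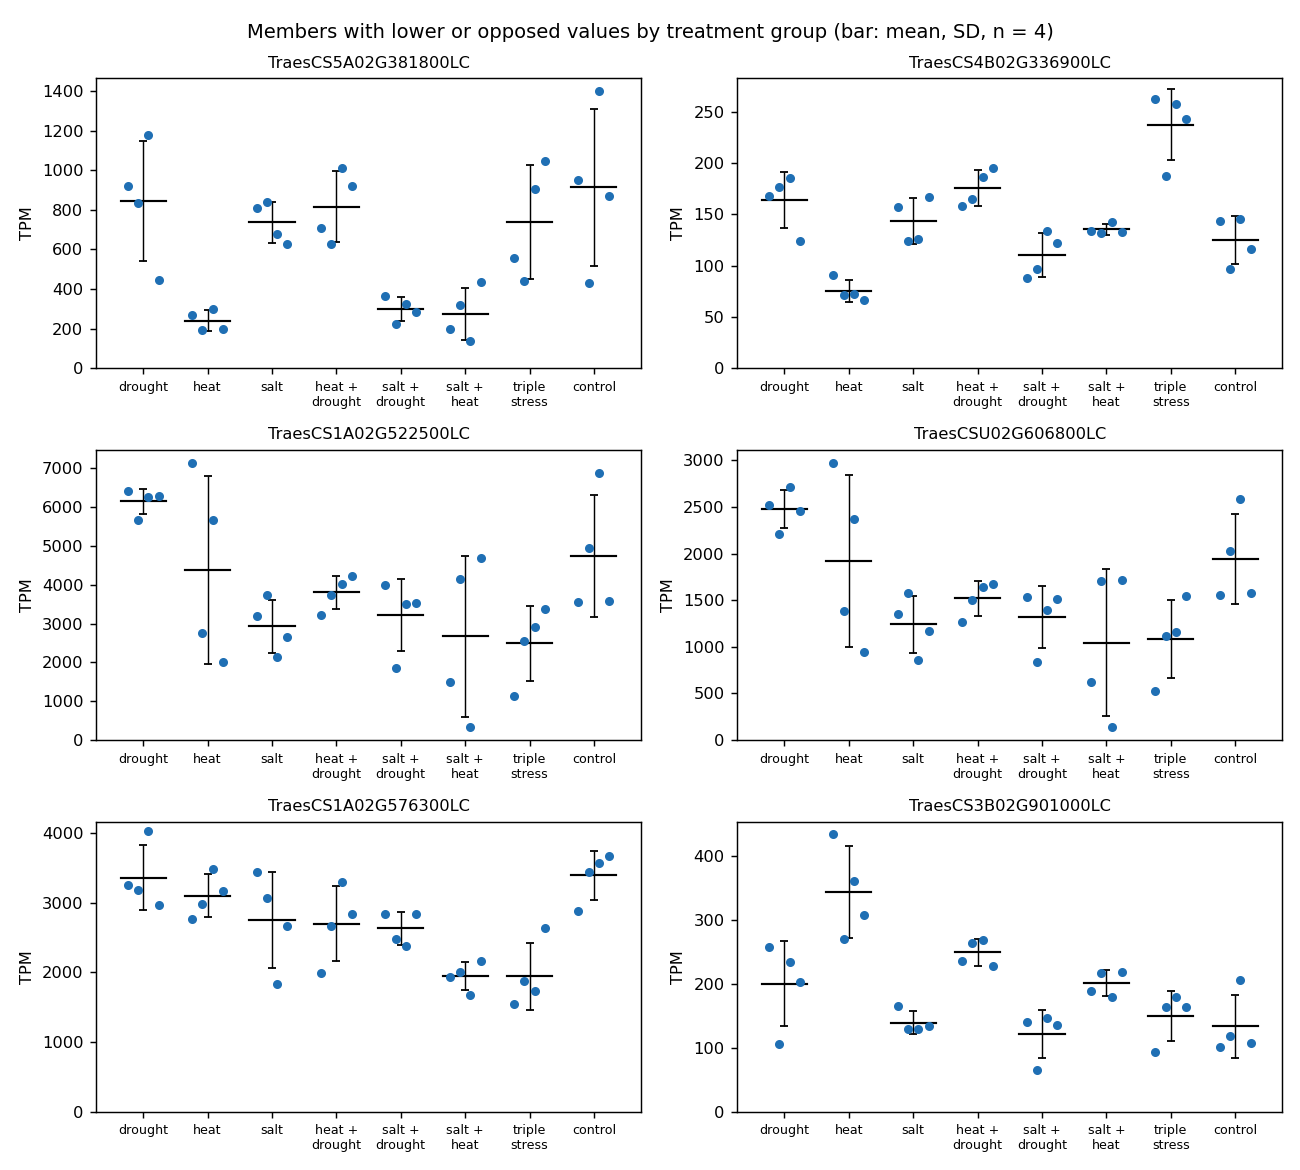
TPM by library in the 8 groups for 6 models with lower or opposed values, with points for libraries and bars for mean and SD (n = 4). TraesCS5A02G381800LC lay lowest in heat, salt plus drought and salt plus heat, TraesCS4B02G336900LC was lowest in heat and highest in triple stress, and TraesCS3B02G901000LC was highest in heat.

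Averaged over the other treatments, the 16 libraries with heat against the 16 without gave 6 rises and 6 falls in the 100, where 9.77% of all models were called, 7.22% as rises and 2.55% as falls. After median-of-ratios scaling there were 5 rises and 9 falls, with no share of all models taken. TraesCS5B02G413000LC had 202, 135, 179.7 and 141 TPM in heat plus drought, 58.8, 72.6, 60.9 and 67.3 TPM in drought and 86.4, 122, 54.9 and 96.8 TPM in control. With heat it averaged 144 ± 35.7 TPM and without it 81.5 ± 21.2 TPM (SD, n = 16 each), a log2 fold change of 0.82 (SE 0.11, limma adjusted p = 5.32e-06). TraesCS5D02G243000LC also rose with heat (log2 fold change 0.49, SE 0.12, limma adjusted p = 0.00846). Its rise was largest in salt plus heat, at 298, 168, 375 and 175 TPM, against 102, 104, 100.9 and 97.1 TPM in control.

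TraesCS3B02G901000LC had 435, 271, 362 and 308 TPM in heat, against 102, 119, 207 and 108 TPM in control. Each heat library was above each control library (log2 fold change 1.39, SE 0.26, limma adjusted p = 0.0032). The call held without any single library. Salt plus drought had 139.6, 65.6, 147 and 136 TPM and triple stress 93.1, 164, 179.9 and 164 TPM, which overlapped control. It rose with heat over 16 libraries a side (log2 fold change 0.66, SE 0.13, limma adjusted p = 0.00131) and fell with salt (log2 fold change -0.53, SE 0.13, limma adjusted p = 0.0047). Among the falls with heat, TraesCS1D02G040000LC averaged 88.8 ± 28.4 TPM with heat and 120 ± 26.8 TPM without it (SD, n = 16 each; log2 fold change -0.48, SE 0.13, limma adjusted p = 0.0136). TraesCS4A02G455100LC fell too (-0.48 on the log2 scale, adjusted p = 0.0445), a call lost without any one of 20 libraries.

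TraesCS5A02G381800LC had the largest fall of the 100 in heat. It had 268, 192, 301 and 196 TPM in heat, against 953, 429, 1402 and 871 TPM in control, a log2 fold change of -1.84 (SE 0.34, limma adjusted p = 0.00294). Salt plus drought had 365, 221, 322 and 284 TPM and salt plus heat 196, 320.1, 139 and 436 TPM. Salt plus drought did not overlap control, and salt plus heat overlapped it by its replicate 4. Both falls were called (-1.52 and -1.75 on the log2 scale), and that of salt plus drought was lost without salt plus drought replicate 2 or control replicate 1 or 3. Drought averaged 845 ± 304 TPM, salt 737 ± 102.7 TPM, heat plus drought 817 ± 181 TPM, triple stress 738 ± 287 TPM and control 914 ± 399 TPM (SD, n = 4 each).

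The effect of drought on TraesCS5A02G381800LC differed by heat. Its effect in the groups with heat, less its effect in those without heat, was on the log2 scale 2.32 (SE 0.34, limma adjusted p = 0.00125). The averaged fall with heat (-0.54 on the log2 scale, adjusted p = 0.0452) was lost without any one of 21 libraries, and the averaged fall with salt (adjusted p = 0.0485) without any one of 22.

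TraesCS4B02G336900LC was the 1 model of the 100 that fell in one comparison with control and rose in another. It had 91.1, 71.5, 72.5 and 66.7 TPM in heat, 262, 187, 258 and 242 TPM in triple stress and 143, 96.3, 145 and 116 TPM in control. Heat lay under control and triple stress above it, both without overlap. The fall in heat (log2 fold change -0.71, SE 0.16, limma adjusted p = 0.0188) was lost without heat replicate 2, 3 or 4 or control replicate 1, under quantile normalisation, under median-of-ratios scaling and without control replicate 3 and heat replicates 1 and 3 together. The log2 rise in triple stress was 0.92 (SE 0.16, limma adjusted p = 0.00037) and held without any single library. Its effect of drought differed by heat as well, on the log2 scale by 1.01 (SE 0.16, limma adjusted p = 0.00294). That difference was lost under median-of-ratios scaling. These were the 2 models of the 100 called for drought by heat, both rises, where 0.359% of all were called, 0.313% as rises and 0.0461% as falls. The count was 4 without control replicate 3. Quantile normalisation gave 4 rises and 1 fall, and median-of-ratios scaling 3 rises and 1 fall. For heat by salt, limma called 0 of the 100 and 0.0313% of all models, with 7 of the 100 at an unadjusted p below 0.05 and 1 call without any one of drought replicate 4, heat replicate 1, salt plus drought replicate 3, triple stress replicate 2 and control replicate 2.

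In drought against control, the calls were a rise of TraesCS5B02G358800LC and a fall of TraesCS1D02G131800LC. Without control replicate 3 there were 11, and without control replicate 3 and heat replicates 1 and 3 together 6 rises and 15 falls. Whether the calls among all models grew likewise in these reduced sets was not tested. TraesCS1D02G131800LC had 79.8, 31.4, 64.0 and 73.4 TPM in drought, 58.2, 56.7, 47.6 and 44.9 TPM in triple stress and 145, 161, 94.96 and 148 TPM in control. Both stressed groups lay under control without overlap. The drought call (-1.19 on the log2 scale, adjusted p = 0.0404) was lost without drought replicate 1, 2 or 3 or control replicate 1, 2 or 4, and under both other scalings. The triple stress call (log2 fold change -1.37, SE 0.30, limma adjusted p = 0.00283) held. Averaged over the other treatments, drought gave 2 rises and 1 fall, where 0.801% of all models were called, 0.384% as rises and 0.417% as falls. TraesCS4B02G336900LC rose, at 172 ± 52.3 TPM with drought and 120 ± 31.3 TPM without it (SD, n = 16 each). The log2 fold change was 0.50 (SE 0.08, limma adjusted p = 0.00248). This call held in every set with one library left out, but a block by title number gave 0 calls for averaged drought. For this model the effect of drought differed by heat, by 1.01 on the log2 scale, and drought alone against control was not called. TraesCS5B02G358800LC rose and TraesCS1D02G131800LC fell, and both calls were lost, so that 1 remained, without any one of drought replicate 3, heat replicate 2, salt replicates 2, 3 and 4, heat plus drought replicates 2 and 3, salt plus drought replicates 1, 2 and 3, salt plus heat replicates 2 and 4, triple stress replicates 1, 2 and 3 and control replicates 1 and 2.

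Triple stress gave the most calls of the 7 comparisons with control. Its rises included TraesCS2B02G285200LC, at 320.2, 228, 208 and 228 TPM in triple stress, against 118, 108, 49.4 and 131 TPM in control (log2 fold change 1.34, SE 0.30, limma adjusted p = 0.00426). TraesCS5A02G259000LC averaged 244 ± 42.6 TPM in triple stress and 100.2 ± 24.8 TPM in control. Each triple stress library of these 2 models was above each control library. Its falls included TraesCS7D02G276900LC, at 238, 271, 230.3 and 162 TPM in triple stress, against 550.0, 590.0, 359 and 517 TPM in control (log2 fold change -1.16, SE 0.24, limma adjusted p = 0.00216). TraesCS4B02G013800LC averaged 147 ± 35.1 TPM in triple stress and 366 ± 110.2 TPM in control. The largest fall, of TraesCS3B02G411300LC (-3.22 on the log2 scale, adjusted p = 0.00966), was lost without triple stress replicate 1, its lowest library. Of the 26 calls, 17 held without any single library, 9 of them rises, and in 22 the triple stress and control ranges did not overlap. Of all models called there, 89.4% had ranges that did not overlap. Called or not, such ranges were found in 31 of the 100 and in 21.9% of all models tested.

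In salt plus heat, falls beside those above were called for TraesCS2A02G097500LC, at 74.0, 84.7, 111 and 79.3 TPM in salt plus heat, against 199, 158, 132 and 193 TPM in control (log2 fold change -0.96, SE 0.23, limma adjusted p = 0.00791). TraesCS7A02G455900LC and TraesCS7B02G273600LC had larger fitted falls, of -1.21 and -1.13 on the log2 scale, but both calls were lost without salt plus heat replicate 1 or 3 or control replicate 1 or 3, and the second also without control replicate 2 or 4. Among the rises, TraesCS1D02G049200LC averaged 123 ± 15.1 TPM in salt plus heat and 81.2 ± 9.19 TPM in control (SD, n = 4 each), a change of 0.59 on the log2 scale that held without any single library. Of the 19 calls, 7 held in that way.

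Of the 100 models, 55 were called in none of the 13 comparisons, against 57.2% of all models tested. They included TraesCS2D02G075400LC and TraesCSU02G656000LC among the 4 most abundant, TraesCS3B02G879200LC at 373 to 845 TPM over the 32 libraries, and the 7 models high in S5. Over 31 libraries the 4950 pairs among the 100 had a median r of 0.038, and 19 pairs reached 0.9. Of these 19, 13 joined models of one chromosome group, as did 594 (12%) of all 4950 pairs. Without the 2 pairs of equal TPM, it was 11 of 17. Examples were TraesCS2B02G217300LC with TraesCS2D02G148900LC (r = 0.971) and TraesCS2A02G182000LC with TraesCS2D02G195000LC (r = 0.964). Neighbours TraesCS6B02G606700LC and TraesCS6B02G606800LC were less alike, at r = 0.797.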

How the data were processed

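The authors aligned filtered reads with STAR to the IWGSC 1.1 wheat genome and estimated TPM with RSEM 1.3.3, per the series design text; the submitters' processing notes also name CASAVA and Trimmomatic. The deposited TPM cover 298774 transcripts in 32 libraries, each summing to 1000000 within 2.26, and 0 columns were left without a sample. TPM keep no depth, so no counting interval is given. Groups and replicate numbers came from the source names in the labels. TPM were summed per gene model (269428). The 100 models, the named models and the lists were chosen with earlier results of these data known.

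Tests covered the 60684 models that reached 1 TPM in 4 or more libraries, on log2(TPM + 1) with limma 3.58.1 in R 4.3.3, two-sided, in 1 model of 8 group means (24 residual degrees of freedom, eBayes with a trend), with Benjamini-Hochberg adjustment over all of them and a threshold of 0.05. The fit was tested on simulated data. Named were the 10 of highest median, up to 3 rises and 3 falls per comparison, models far higher in S5, neighbours by number, and the most and least even; a few further called models were named after their values were seen. Settings tried were 2 other pseudocounts, 2 other filters, 2 scalings, blocks by replicate and title number, robust eBayes, 2-group fits and the removal of each library in turn. A further 2 were chosen after seeing the data. Replicate numbers were not taken as pairs. Correlations of deviations had a median of 0.005 over 112 same-numbered pairs (-0.292 to 0.293). Over 56 pairs of equal title number the median was -0.006 (-0.467 to 0.470). Such medians cannot exclude a pairing of some libraries.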

Additional observations from a re-analysis of the deposited data

Results flagged for a closer look

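In 352 groups of 4 libraries, over 43 of the 100 models and their summed share, 26 held a library far from the other 3 by Dixon's gap test. Salt replicate 3 accounts for 8 of these, in the 7 models chosen for being far higher there and in the share they carry, so these 8 follow from the choice. In the other 344 groups there were 18 (5.23%). Chance would give about 1 in 20 if the groups were independent. They share libraries, some models run together and some were named for extreme values, so no conclusion is drawn from the number. The share of TPM in the 100 models was 11.8% in salt replicate 3, against 3.21% to 4.004% in the other salt libraries. TraesCS2D02G302000LC had 32412 TPM, TraesCS2A02G654100LC 19927 TPM, TraesCSU02G619600LC 15423 TPM, TraesCS3D02G606600LC 7904 TPM, TraesCS5D02G547600LC 7814 TPM, TraesCS4B02G087600LC 5850 TPM and TraesCSU02G589600LC 4369 TPM.

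Heat replicate 1 stood off for 4 of the same models, with 477 TPM for TraesCS2D02G302000LC, 405 TPM for TraesCS2A02G654100LC, 386 TPM for TraesCS3D02G606600LC and 202 TPM for TraesCS5D02G547600LC. Control replicate 3 stood off for 3 models, with 519 TPM for TraesCS1B02G548200LC, 529 TPM for TraesCSU02G664000LC and 207 TPM for TraesCS3B02G901000LC. Salt plus heat replicate 3 was low in the share of TPM, at 2.68%, and high for TraesCS2B02G285200LC, at 319 TPM. TraesCSU02G656000LC had 6015 TPM in salt replicate 1 and 5218 TPM in control replicate 1.

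The remaining single libraries were triple stress replicate 4 for TraesCS2D02G075400LC (3422 TPM), control replicate 1 for TraesCS7D02G297400LC (619 TPM), salt replicate 1 and salt plus drought replicate 2 for TraesCS3B02G901000LC (165 and 65.6 TPM), control replicate 4 for TraesCS5D02G304300LC (54.6 TPM), salt replicate 4 for TraesCS5D02G243000LC (140.1 TPM) and drought replicate 1 for TraesCS3A02G173600LC (235 TPM).

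The effect of drought differed between backgrounds for 4 models, by the limma test of the difference. With heat against without heat, it differed by 2.32 on the log2 scale for TraesCS5A02G381800LC and by 1.01 for TraesCS4B02G336900LC. With salt against without salt, it differed by -1.53 for TraesCS5B02G358800LC and by -1.17 for TraesCS5D02G304300LC.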

How the results depend on the processing

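None of the 46 named results changed direction. Of 533 values under other settings, 477 stayed on their side of the threshold and 56 no longer passed, and of 824 with one library left out, 666 stayed and 158 no longer passed. With one library left out, counts of the 100 called ran from 0 to 11 in drought, 2 to 6 in heat, 5 to 7 in salt, 1 to 3 in heat plus drought, 3 to 8 in salt plus drought, 8 to 25 in salt plus heat, 18 to 24 in triple stress, 1 to 4 for averaged drought, 10 to 12 for averaged heat, 30 to 44 for averaged salt, 2 to 4 for drought by heat, 1 to 3 for drought by salt and 0 to 1 for heat by salt. With no filter on low values, and so more models tested, the counts were 0 in drought, 12 in salt plus heat, 1 for averaged drought and 1 for drought by salt. With at least 5 TPM they were 4 in drought and 1 for heat by salt. Quantile normalisation gave 1 in drought and 5 for drought by heat. Median-of-ratios scaling gave 8 in drought and 4 for drought by heat. Fits of the compared groups alone, with fewer libraries, gave 0 in drought, 0 in heat, 3 in salt, 2 in heat plus drought, 5 in salt plus drought and 4 in salt plus heat. A block by title number gave 0 in drought, 2 in heat plus drought, 5 in salt plus drought, 17 in triple stress, 0 for averaged drought and 3 for averaged heat. Without control replicate 3 and heat replicates 1 and 3 together, a check chosen after seeing the data, the counts were 21 in drought, 6 for averaged drought, 9 for drought by salt and 1 for heat by salt. The cause was not tested in the other cases. For none of these settings was the share of all models called taken, so the counts have no background beside them. The replicate block gave 0 rises and 2 falls in drought, 13 rises and 14 falls in triple stress and 20 rises and 18 falls for averaged salt; same-numbered libraries had correlations of deviations from -0.292 to 0.293, so the numbers were not taken as pairs. As a share of low confidence TPM alone, the 100 held 45.5% in drought, 40.9% in heat, 42.1% in salt and 37.4% in heat plus drought. They held 36.7% in salt plus drought, 34.3% in salt plus heat, 34.0% in triple stress and 41.2% in control. Salt replicate 3 stood at 54.9%, and without it salt averaged 37.8 ± 3.44% (SD, n = 3). Ranked by mean in place of median, 92 of the 100 stayed, and by median without S5, 99.

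TPM carry no read counts, so the precision of a single value is unknown and low levels cannot be told from a few reads. Near-identical copies share reads by estimate. With 4 libraries a group, single libraries decided many calls.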
